A study of Mus musculus with 18 samples.

Results

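Cultured Th2 cells were compared with whole allergic lung in 6 of the 18 libraries of the series, 3 of each kind, to describe which transcripts were specific to either. The libraries were chosen by their titles alone. The series measured RNA by sequencing in a study of amphiregulin-producing memory Th2 cells, eosinophils and airway fibrosis. Its 6 groups of 3 libraries are memory Th2 cells given IL-2 alone or together with IL-33, then eosinophils without or with amphiregulin, and lung of wild-type or dGATA mice. The eosinophil libraries were not used here.

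The Th2 libraries, with the title numbers 1, 3 and 5, came from memory Th2 cells of BALB/c mice with high ST2, the receptor of IL-33, after 3 days in culture with IL-2. The lung libraries, with the title numbers 1, 2 and 3, came from whole lung of wild-type BALB/c mice given OVA. The lung labels say OVA, whereas the design text of the series speaks of house dust mite. The other 6 mouse libraries, used only for a second contrast of the same kind, were Th2 cells cultured with IL-2 and IL-33 and lung of OVA-treated knockout mice labelled dGATA, a name that the labels do not spell out. All 12 mouse libraries share the strain, TRIzol extraction of total RNA and a stranded mRNA library kit. Whether the replicates are separate animals or cultures is not in the labels, and the p-values therefore reflect the spread of these libraries alone, which may be technical. No culture of another cell type and no fresh Th2 cell entered the comparison, and cell type, culture and any batch fall together between the groups, so that they cannot be told apart.

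Th2 cells are CD4+ T cells that secrete interleukins 4, 5 and 13 under the transcription factor GATA3 and drive allergic airway inflammation. IL-2 is the growth factor of activated T cells, and ST2 lets memory Th2 cells sense IL-33 released by damaged lung cells. Whole lung mixes alveolar and airway epithelium, endothelium, fibroblasts, smooth muscle and resident and recruited leukocytes, among which T cells are a minority. In such bulk samples, fewer cells of a type and less RNA per cell cannot be told apart.

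Values are given here as levels. A level is a gene's deposited FPKM, summed over entries of 1 symbol and rescaled so that all genes other than small RNAs sum to 1000000 in each library, which allows genes to be compared per length. Differences were tested with limma on log2(level + 1), on which fold changes of genes are compressed near or below a level of 1. Small RNA features, which were set aside, took 20.13 to 21.34% of all FPKM in the Th2 libraries and 3.986 to 5.111% in the lung. The Th2 libraries listed 13437 to 14095 genes above 0 and the lung libraries 17749 to 18313. Read totals were not used. The relative depth, estimated roughly from low FPKM values and set to 1 for Th2 library 1, was 1.03 and 0.669 for Th2 libraries 3 and 5 and 1.45 to 2.30 for the lung. Th2 library 5 stood apart from the other two: of 9093 genes with a mean level of 5 or more, 83 were more than 2 times as high in it as in both others and 100 were less than 50% as high, against at most 3 genes each way for libraries 1 and 3. Values are therefore given by library, and results that rest on library 5 are also given without it.

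Most tested markers went with the labels, with exceptions in the lists of both groups. Of 17 tested genes of Th2 identity, 14 were called higher in Th2 cells, 2 higher in lung and 1 was not called. Over all tested genes, 37.5% were called higher in Th2 cells and 49.8% higher in lung. Gata3, the master regulator of Th2 cells, had levels of 285, 281 and 180.2 in Th2 libraries 1, 3 and 5 and of 6.86, 8.41 and 7.02 in lung libraries 1, 2 and 3. Il1rl1, which encodes ST2, had levels of 142, 123 and 105 in the Th2 cells and 9.21, 9.29 and 7.55 in the lung. Cd8a, a marker of CD8+ T cells, was listed at 0 in all Th2 libraries, and so were the lung epithelial genes Sftpc and Scgb1a1. Of 300 genes in the lists of lung, myeloid, B cell and other non-T cell markers that the files hold, 276 could be tested, and 209 of these were below a level of 1 in every Th2 library, so they passed the filter through the lung alone and had to be higher there. Of the other 67, 54 were called higher in the lung and 8 higher in the Th2 cells. Of all 14543 tested genes, 3456 passed through the lung alone and 160 through the Th2 cells alone. Among the remaining 10927, 5299 were called higher in Th2 cells and 3792 higher in lung.

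Nearly all measured genes differed between the groups. Of 14543 tested genes, 12707 (87.4%) were called at a Benjamini-Hochberg adjusted p below 0.05 in limma, 5459 (37.5%) higher in Th2 cells and 7248 (49.8%) higher in lung. Groups did not overlap in 88.9% of tested genes. The median log2 difference, Th2 cells minus lung, was -0.28. With at least a 2-fold difference, 2988 genes (20.5%) were higher in Th2 cells and 5578 (38.4%) in lung, and at 10-fold 239 (1.64%) and 2009 (13.8%). The lung therefore held more genes with a large excess than the culture. The direction of small differences rested on the scaling. Housekeeping scaling, which sets the summed level of 12 housekeeping genes equal, shifted the log2 differences of single genes by a median of -1.54. The median difference was then -1.65, with 971 genes higher in Th2 cells and 12291 in lung. Quantile normalization shifted single genes by a median of 0.73. It gave a median difference of 0.27, with 7291 genes higher in Th2 cells and 5056 in lung. Of all called genes, 43.0% were thus higher in Th2 cells in the fit reported here, 7.32% under housekeeping scaling and 59.1% under quantile normalization.

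**Figure D1:**
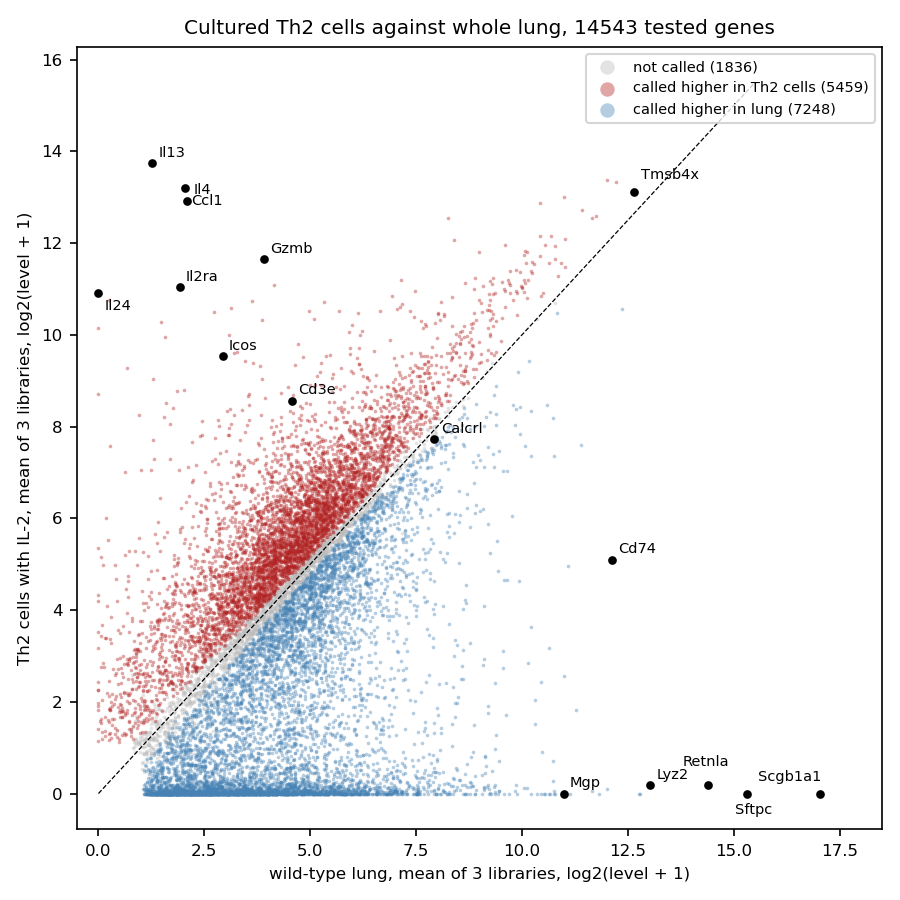
Mean level of each tested gene in lung (x axis) and in Th2 cells cultured with IL-2 (y axis), both as log2(level + 1) of 3 libraries, with genes called higher in Th2 cells in red, higher in lung in blue and not called in grey. Il13, Il4 and Ccl1 lie at the top left, with means of 13736 ± 1833, 7784 ± 932 and 9383 ± 9678 in Th2 cells, and Scgb1a1 and Sftpc lie on the x axis at the far right, with lung means of 134522 ± 14516 and 40705 ± 3239 and 0 in Th2 cells.

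The most abundant transcripts showed what each RNA pool was made of. Il13, the cytokine that drives mucus and airway hyperreactivity, was the most abundant gene of the culture by mean level, at 13150.3, 12267 and 15790.5 in Th2 libraries 1, 3 and 5, or 1.37% of the total. In lung libraries 1 to 3 its levels were 1.13, 1.80 and 1.28. The log2 difference was 12.48 ± 0.13 (SE), the largest of all genes toward Th2 cells (adjusted p 2.24e-09, limma). Il4, the cytokine that induces Th2 cells and IgE, had levels of 8108, 8510.0 and 6733 in the culture and 2.53, 3.81 and 3.49 in the lung, a ratio of means of 2378. Together Il4, Il5 and Il13 made up 2.14 to 2.31% of the total level in the 3 Th2 libraries. The remaining genes among the 12 most abundant by mean in the culture were Eef1a1, Ccl1, Tmsb4x, Actb, Ly6a, Rpl41, Tpt1, Rplp1, Ifi27l2a and Hspa8, which include Rpl41 and Rplp1 of the ribosome and Actb of the cytoskeleton.

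Ccl1, a chemokine that attracts cells bearing CCR8, varied among the Th2 libraries. Its levels were 3663, 3929 and 20558 in libraries 1, 3 and 5 and 2.86, 2.99 and 3.56 in the lung. The highest Th2 value thus came from library 5. No value overlapped the lung, as in 88.9% of all tested genes. The ratio of means was 2990.0, and 1210 without library 5.

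The lung pool was dominated by a few secreted proteins. Scgb1a1, the club cell secretory protein, had levels of 125445, 151264 and 126858 in lung libraries 1 to 3, on average 13.5% of the total, and was listed at 0 in every Th2 library. Sftpc, the surfactant protein of alveolar type 2 cells, had levels of 38406, 39299.7 and 44409.7, or 4.07% of the total, and was likewise listed at 0 in the culture. Retnla, a resistin-like protein made by epithelium and macrophages in type 2 inflammation, had levels of 22978, 22933 and 18107 in the lung and of 0, 0.438 and 0 in the Th2 cells. The 12 most abundant genes of a library held 23.8 to 26.1% of the lung total and 9.90 to 10.8% of the Th2 total. The remaining genes among the 12 most abundant by mean in lung were Lyz2, Chi3l3, Cbr2, Tmsb4x, Fth1, Cd74, Inmt, Eef1a1 and Sftpa1. Chi3l3 has the near-identical copy Chi3l4, so its value is uncertain.

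Promoter sequences of 4 genes with large differences are shown, of Il13 and Il5 of the Th2 cytokine locus on chromosome 11, whose transcripts were high together in the culture, and of Sftpa1 and Retnla, which were abundant in lung and near 0 in the culture. Each is the 250 bases before the RefSeq start on GRCm38.p6, read 5′ to 3′ on the gene's strand. Capitals mark the TATA box motif TATAAA, the GATA factor motifs AGATAA and AGATAG as well as TGATAA and TGATAG, and lastly CTCAAG, a core bound by Nkx2-1, each searched on both strands.
Il13 (chr11:53634703-53634952, minus strand): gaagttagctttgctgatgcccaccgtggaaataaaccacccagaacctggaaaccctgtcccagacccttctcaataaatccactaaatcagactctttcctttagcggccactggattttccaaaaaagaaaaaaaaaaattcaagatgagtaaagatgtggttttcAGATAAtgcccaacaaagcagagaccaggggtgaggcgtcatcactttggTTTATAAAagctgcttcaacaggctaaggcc
Il5 (chr11:53720544-53720793, plus strand): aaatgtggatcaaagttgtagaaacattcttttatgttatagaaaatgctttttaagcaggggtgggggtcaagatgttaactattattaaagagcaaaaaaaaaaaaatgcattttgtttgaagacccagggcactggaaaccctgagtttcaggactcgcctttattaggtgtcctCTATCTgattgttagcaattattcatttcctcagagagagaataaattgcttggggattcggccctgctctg
Sftpa1 (chr14:41131538-41131787, plus strand): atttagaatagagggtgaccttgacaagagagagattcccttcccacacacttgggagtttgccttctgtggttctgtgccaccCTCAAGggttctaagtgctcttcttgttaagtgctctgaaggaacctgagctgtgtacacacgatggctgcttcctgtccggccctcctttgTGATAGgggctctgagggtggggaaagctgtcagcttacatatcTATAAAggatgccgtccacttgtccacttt
Retnla (chr16:48842359-48842608, plus strand): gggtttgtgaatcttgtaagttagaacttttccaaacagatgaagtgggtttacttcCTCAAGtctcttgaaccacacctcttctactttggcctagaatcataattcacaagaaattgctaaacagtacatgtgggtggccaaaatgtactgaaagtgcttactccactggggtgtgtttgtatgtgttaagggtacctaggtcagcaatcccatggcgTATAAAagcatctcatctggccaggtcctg
In the Il13 promoter, TATAAA began 29 bases before the start and overlapped its own reverse complement, which began at base 31, and AGATAA began at base 81. The Il5 promoter held the reverse complement of AGATAG at base 72 and no TATAAA. The Sftpa1 promoter held TATAAA at base 30, TGATAG at base 74 and CTCAAG at base 166. The Retnla promoter held TATAAA at base 30 and CTCAAG at base 193, and its RefSeq start lay 57 bases from the start in the files. Of 15597 promoters in the RefSeq table, 11.9% held TATAAA, 23.4% a GATA motif and 12.8% CTCAAG, so each motif is common, and a match describes the letters and not a bound site.

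Genes found on 1 side alone were far more numerous in the lung. A gene was counted as one-sided when every library of 1 group had a level of 5 or more and every library of the other group was below 0.5, which is a description with no test. By this rule 23 of 22511 genes (0.102%) were near absent from lung and 1762 (7.83%) near absent from Th2 cells. They were 0.262% of the 8795 genes at 5 or more in all Th2 libraries and 15.3% of the 11488 genes at 5 or more in all lung libraries. The lung set carried 33.8% of the lung's total level, and the Th2 set 0.579% of the culture's. A total of 8148 genes reached 5 in all libraries of both groups. The rule's edges were narrow: Nefh and Il2 lay just inside the Th2 set with highest lung levels of 0.473 and 0.405, and Exo1 and Piwil2 just outside with 0.514 and 0.536. For the lung set, Grhl2 and Rnf217 lay just inside with highest Th2 levels of 0.499 and 0.495, and Hspb7 and Timp2 just outside with 0.501 and 0.503.

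Of the 23 genes near absent from lung, 9 encode interleukins or type I interferons. Il24, an IL-10 family cytokine that acts on epithelium, had Th2 levels of 2347, 2409 and 1034 and was listed at 0 in all lung libraries. Il9, a growth factor for mast cells and goblet cells, had Th2 levels of 953, 961 and 1506 and was also listed at 0 in all of them. Il3, which supports basophils and mast cells, had 201, 254 and 796 against 0, and its Th2 mean of 417 ± 329 fell to 228 without library 5. These 3 genes were clear in every Th2 library and undetected in lung.

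Il2, the cytokine that was also added to the medium as protein, had Th2 levels of 923, 976 and 3274 and lung levels of 0.179, 0.405 and 0. Its Th2 mean was 1724 ± 1342, and 949 without library 5. Il31, the itch cytokine, had 21.2, 22.8 and 74.8 in Th2 cells and was listed at 0 in lung, and its Th2 mean of 39.6 ± 30.5 fell to 22.0 without library 5. Il17f, a cytokine of the Th17 programme, had 25.5, 21.8 and 56.5 in Th2 cells and 0, 0 and 0.110 in lung. Library 5 was the highest of the Th2 libraries for Il2, Il3, Il9, Il31 and Il17f and the lowest for Il24.

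Interferon genes themselves were in the same set. Ifnb1 had Th2 levels of 11.4, 10.7 and 9.31, Ifna2 of 13.3, 18.2 and 25.7 and Ifna4 of 14.4, 18.3 and 19.2, and all were listed at 0 in the wild-type lungs. Ifna2 and Ifna4 belong to a family of near-identical genes, so the split between copies is uncertain. In the Th2 libraries with IL-33 none of the 3 genes exceeded 0.302. Oas1a and Oas1g, copies of an interferon-induced antiviral enzyme, had Th2 levels of 234, 246 and 88.2 and 77.0, 82.4 and 29.6 and stayed below 0.3 in the wild-type lungs, but reached 8.71, 25.4 and 41.0 and 4.11, 13.6 and 23.3 in dGATA lungs 1 to 3. The absence of these copies was therefore not shared by all lungs, and as near-identical copies their values are uncertain.

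The rest of the Th2 set comprised Tnp2, Fosl1, Nefh, Utf1, Lancl3, Gzmc, Hist2h2aa2, Hrh4 and 4 clone or predicted genes. Fosl1, a component of the AP-1 transcription factor, had 32.8, 32.0 and 27.4 in Th2 cells, and Gzmc, a granzyme, had 7.56, 8.73 and 12.3 against 0.182, 0 and 0.147 in lung. Hrh4, the histamine receptor H4, had 5.93, 6.59 and 5.92 against 0.149, 0 and 0.0805, which is close to the bound of 5. In the other mouse libraries, 13 of the 23 reached 5 in all Th2 libraries with IL-33 and 15 stayed below 0.5 in all dGATA lungs.

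The 1762 lung genes included 169 of the 300 markers of lung and of leukocytes other than T cells. They were listed at 0 in all Th2 libraries in 680 cases, and 151 had clone or predicted names. In dGATA lung 1476 of them (83.8%) reached 5 in every library, and in Th2 cells with IL-33 1550 (88.0%) stayed below 0.5 in every library. Only 5 of them reached 5 in every Th2 library with IL-33: Mmp3, Sgce, Atp6v0d2, Tmtc2 and Fam115c, named here because of these values. Mmp3, a matrix metalloproteinase, had 0.345, 0.270 and 0.330 in Th2 cells with IL-2, 14.0, 12.5 and 12.5 with IL-33 and 18.7, 27.5 and 20.8 in lung. For these 5 genes, near absence therefore described the IL-2 culture and not all Th2 cells measured.

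Th2 cytokines formed the widest gap of the T cell lists. All 12 genes of the list passed the filter, 6 of them through the Th2 libraries alone. The other 6 were called higher in Th2 cells, against 37.5% of all tested genes. The median log2 difference of the 12 was 7.86, against -0.28 over all tested genes. Per gene, the lung level was at most 1.91% of the level in the culture, with a median of 0.187%. Il5, which supports eosinophils, had Th2 levels of 651, 621 and 579 and lung levels of 0.749, 0.527 and 0.484, a log2 difference of 8.61 ± 0.089. Csf2, encoding GM-CSF, had 579, 610.4 and 1870.2 in Th2 cells and 5.04, 8.57 and 8.93 in lung, a ratio of 136 that was 79.1 without library 5. Areg, the epidermal growth factor family ligand amphiregulin of the study's title, had 193, 211 and 261 in Th2 cells and 3.60, 5.53 and 3.56 in lung. Areg showed the narrowest gap of the list, 52.4 in the ratio of means (adjusted p 1.02e-07, limma). Its libraries still did not overlap, as in 88.9% of all tested genes.

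Il10, the anti-inflammatory cytokine, went the other way among the Th2 libraries. Its levels were 738, 732 and 99.9 in libraries 1, 3 and 5 and 0.904, 1.91 and 1.56 in lung. Library 5 was the lowest, and all 3 Th2 libraries still exceeded every lung library (log2 difference 7.29 ± 0.75, adjusted p 5.13e-05, limma). Il6, Il21 and Tnfsf11 were the remaining members, with Th2 means of 133 ± 18.4, 24.8 ± 13.8 and 38.1 ± 11.2 and lung means of 1.00 ± 0.907, 0.326 ± 0.220 and 0.636 ± 0.225.

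**Figure D2:**
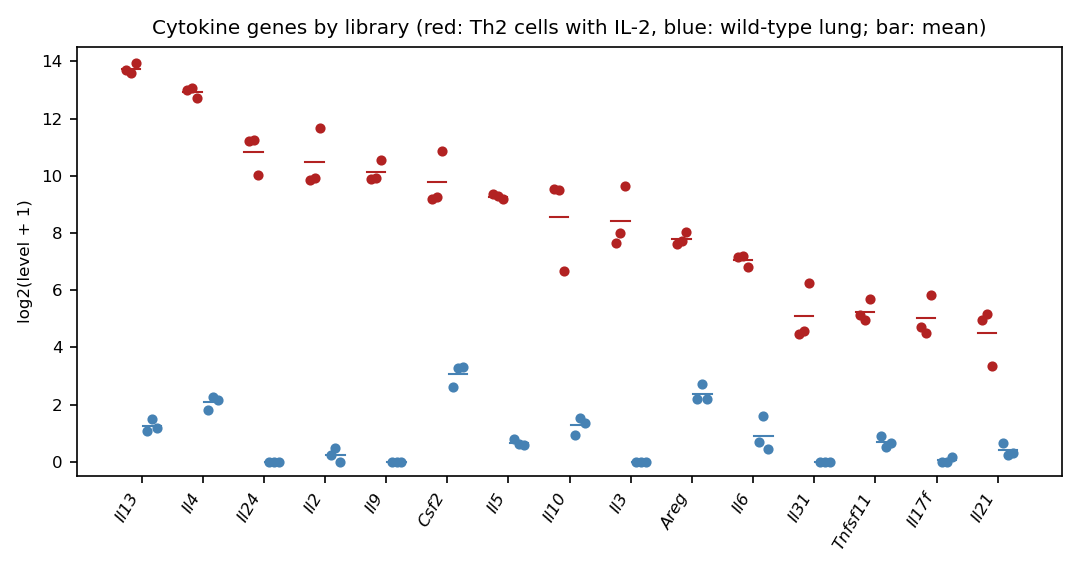
Levels of 15 cytokine genes as log2(level + 1) in each library (1 point per library), with Th2 cells cultured with IL-2 in red, wild-type lung in blue and bars at the group means. The groups do not overlap for any of the 15 genes, as for 88.9% of all tested genes. For Il24, Il9, Il3 and Il31 all lung points lie at 0.

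Genes of the T cell receptor complex and its signalling were higher in the culture by a smaller factor. All 20 members were called higher in Th2 cells, against 37.5% of all tested genes, with a median log2 difference of 4.09. The lung level was 0.896 to 15.8% of the level in the culture, with a median of 5.34%. Cd3e, the CD3 epsilon chain, had levels of 389, 406 and 339 in Th2 cells and 24.4, 20.7 and 22.9 in lung, a ratio of 16.7. Cd4, the co-receptor, had 187, 189 and 173 and 22.2, 14.8 and 15.9. Cd3e and Cd4 were chosen after their values were seen, as the defining markers of the cell type. The adaptor Lat had 1418, 1440.3 and 1527 in Th2 cells and 38.1, 23.6 and 30.1 in lung.

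Some members lay further apart than Cd3e. Icos, a costimulatory receptor of activated T cells, had 886, 878 and 455 in Th2 cells and 6.33, 6.20 and 7.35 in lung, a ratio of 112. Ctla4, an inhibitory receptor, differed among the Th2 libraries, with 158, 154 and 10.7 in libraries 1, 3 and 5 against 5.27, 5.39 and 4.91 in lung. Library 5 thus lay close to the lung for Ctla4, and its adjusted p of 0.0115 in limma came with a wide 95% interval of the log2 difference, 1.14 to 5.69. Under housekeeping scaling Ctla4 was not called, at an adjusted p of 0.0534.

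**Figure D3:**
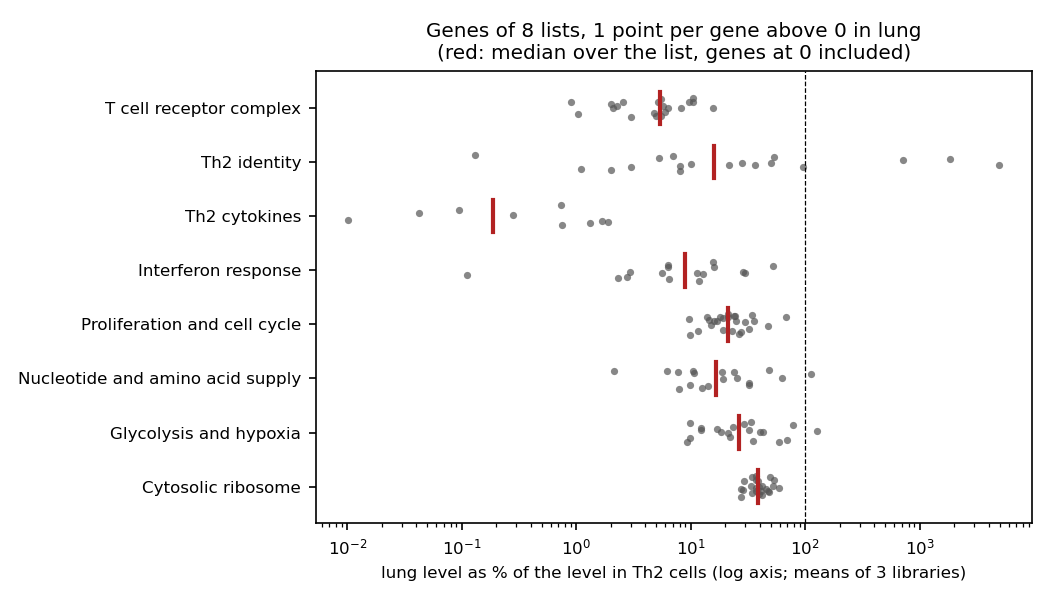
Lung level of each gene as a percentage of its level in Th2 cells (x axis, log scale, means of 3 libraries) for 8 gene lists, with 1 point per gene above 0 in lung and a red bar at the list's median. Medians run from 0.187% for Th2 cytokines over 5.34% for the T cell receptor complex to 39.0% for the cytosolic ribosome.

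Of 17 tested genes of Th2 identity, 14 were called higher in Th2 cells and 2 higher in lung, with a median log2 difference of 3.00. The shares over all tested genes were 37.5% and 49.8%. Both genes called higher in lung passed the filter through the lung alone, which fixed their direction. Under housekeeping scaling 9 were higher in Th2 cells and 5 in lung, with a median of 1.27. Il2ra, the high-affinity IL-2 receptor chain, had 2538, 2311 and 1494 in Th2 cells and 2.97, 2.75 and 2.62 in lung, a log2 difference of 9.09 ± 0.19 (adjusted p 1.56e-08, limma). Irf4 and Batf, transcription factors that act together in activated T cells, had Th2 means of 789 ± 43.6 and 363 ± 40.4 against 8.71 ± 1.89 and 29.0 ± 2.85. Against the direction of the list, Il17rb, the IL-25 receptor, had 0.297, 0.278 and 0 in Th2 cells and 4.33, 3.18 and 3.12 in lung. Bhlhe41, a transcription factor, likewise had 0.302, 0.141 and 0 and 6.55, 7.40 and 8.11. These are the 2 genes whose direction the filter fixed. Il17rb turned to 0.20 on the log2 scale under quantile normalization, where it was not called. Stat6, the signal transducer of IL-4, was not called, with means of 103 ± 20.1 and 97.6 ± 4.16 and a 95% interval of the log2 difference of -0.25 to 0.36. Under housekeeping scaling it was called higher in lung, at -1.67. Gpr44, which encodes the prostaglandin D2 receptor CRTH2, was below the filter in both groups, with means of 0.0981 ± 0.113 and 0.702 ± 0.291.

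Markers of other T helper programmes were mixed. Of 9 genes of the Th1 and interferon gamma list, 6 were called higher in Th2 cells and 3 higher in lung. Over all tested genes the shares were 37.5% and 49.8%. The median of the list, 1.54, became -0.10 under housekeeping scaling. Tbx21, the Th1 regulator T-bet, had 87.8, 88.0 and 165 in Th2 cells and 4.69, 3.37 and 2.97 in lung. Ifng, interferon gamma, had 80.2, 82.8 and 465 in Th2 cells and a lung mean of 1.44 ± 0.123, with a Th2 mean of 209 ± 222, or 81.5 without library 5. Both were highest in library 5. In the lung direction stood Ifngr1, Il18r1 and Hlx, with lung means of 213 ± 21.5, 60.7 ± 7.13 and 39.5 ± 6.85 against 28.1 ± 1.16, 5.59 ± 2.42 and 1.25 ± 1.11.

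Of 10 regulatory T cell genes, 5 were called higher in Th2 cells and 4 in lung, against 37.5% and 49.8% of all tested genes, and 4 and 5 under housekeeping scaling. These shares lay near the background and set the list apart in neither direction. Among the members higher in Th2 cells were activation receptors shared with effector cells, such as Tnfrsf4 (OX40), with 1506, 1522 and 1281 in Th2 cells and 6.91, 4.42 and 5.41 in lung. Foxp3, the defining factor of regulatory T cells, had 1.55, 0.831 and 0.267 in Th2 cells and 3.34, 3.49 and 3.53 in lung, and was called higher in lung (log2 difference -1.30 ± 0.24, adjusted p 0.00134, limma), but higher in Th2 cells under quantile normalization, at 0.85.

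Of 11 tested cytotoxic effector genes, 6 were higher in Th2 cells, 3 higher in lung and 2 not called, against 37.5% and 49.8% of all tested genes higher in either, with a median of 1.06 that became -0.70 under housekeeping scaling. Gzmb, granzyme B, had 3806, 3919 and 1865 in Th2 cells and 13.3, 11.8 and 16.7 in lung, a ratio of 229 (adjusted p 2.31e-07, limma). Prf1, the pore-forming perforin, had 0.596, 0.837 and 1.28 in Th2 cells and 8.97, 7.63 and 7.77 in lung, and was called higher in lung. Gzmk and Nkg7 were also higher in lung, with means of 6.63 ± 1.90 and 48.0 ± 7.73 against 0.202 ± 0.175 and 16.1 ± 8.43. Gzmk passed the filter through the lung alone, which fixed its direction. Prf1 and Gzmk lost the call under quantile normalization, at adjusted p values of 0.219 and 0.131. Granzyme B was thus high in the culture while these 3 granule genes were lower there than in lung.

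Genes of resting and recirculating lymphocytes went in both directions, as did all tested genes, of which 37.5% were higher in Th2 cells and 49.8% in lung. Of 11 members, 5 were called higher in Th2 cells and 3 in lung. Their median of 0.73 became -0.96 under housekeeping scaling. Klf2, which maintains T cell quiescence, had 1.94, 1.50 and 0.816 in Th2 cells and 222, 205 and 223 in lung. Its target S1pr1, the receptor for exit from tissues, had 2.47, 2.86 and 2.61 and 234, 236 and 292. Both genes are also expressed by endothelium, whose marker Cdh5 had lung levels of 392, 429 and 478, and the part of that tissue in their difference was not tested. Satb1, a chromatin organizer of T cells, went the other way with 394, 379 and 198 in Th2 cells and 7.70, 7.47 and 6.25 in lung.

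The cultured cells expressed growth genes more highly. All 25 cell cycle genes were called higher in Th2 cells, against 37.5% of all tested genes. Their median log2 difference of 2.02 was 0.36 under housekeeping scaling, where 14 were called higher in Th2 cells and 2 higher in lung. Pcna, the replication clamp, had 399.5, 411 and 333 in Th2 cells and 121, 100.3 and 119 in lung. Its difference of 1.74 was -0.018 under housekeeping scaling, where it was not called. Rrm2, a subunit of ribonucleotide reductase, had 153, 143 and 92.9 and lung levels of 12.8 ± 3.92. Of 18 genes of nucleotide and amino acid supply, 17 were higher in Th2 cells, with a median of 2.50 and of 0.78 under housekeeping scaling. Slc7a5, a large neutral amino acid transporter, had 301, 295 and 255 in Th2 cells and 7.42, 5.69 and 5.03 in lung, the widest gap of that list at a ratio of 46.9.

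Metabolic lists followed with smaller gaps. Over all tested genes, 37.5% were higher in Th2 cells and 49.8% in lung. Of 20 glycolysis and hypoxia genes, 19 were higher in Th2 cells, with a median of 1.92 and of 0.18 under housekeeping scaling. Ldha, lactate dehydrogenase A, had 1339.7, 1355 and 1135 in Th2 cells and 293, 261 and 249.7 in lung. All 24 ribosomal protein genes were higher in Th2 cells with a median of 1.36, which turned to -0.40 under housekeeping scaling. The 22 respiratory chain genes had a median of 0.35, with 17 higher in Th2 cells and 2 in lung, which turned to -1.41 under housekeeping scaling and to -0.04 under quantile normalization. Of 19 lipid synthesis genes, 13 were higher in Th2 cells and 4 in lung, with a median of 0.98 that turned to -0.76 under housekeeping scaling. Scd1, a fatty acid desaturase, was higher in lung with 576, 585 and 448 against 4.74, 12.3 and 0.752 in Th2 cells, where library 3 set much of the mean of 5.94 ± 5.88, which was 2.75 without it.

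Genes of the interferon response were higher in Th2 cells as a group. All 16 were called higher in Th2 cells, with a median log2 difference of 3.42 and of 1.68 under housekeeping scaling. Among all tested genes, 87.4% were called, and 37.5% were called higher in Th2 cells. Isg15, a ubiquitin-like protein, had 1617, 1695 and 1744 in Th2 cells and 40.0, 45.0 and 32.4 in lung, a ratio of 43.0 (adjusted p 1.80e-08, limma). Irf7, the regulator of type I interferon genes, had 561, 602 and 575 and 39.2, 37.4 and 33.6. The level was lower in the Th2 libraries with IL-33, where the 16 genes summed to 682 to 1050 against 5696 to 6013 with IL-2 alone and 518 to 548 in wild-type lung. Between IL-33 Th2 cells and dGATA lung, 3 of the genes were called higher in Th2 cells and 5 higher in lung, with a median of 0.11. That median lay close to the -0.16 of all genes in that contrast, and whether the 2 contrasts differed was not tested. All 10 MHC class I genes were also higher in Th2 cells, with a median of 1.86 that was 0.10 under housekeeping scaling, where 2 were called higher in Th2 cells and 4 higher in lung.

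Immediate early genes were split. Of 18, 12 were higher in Th2 cells and 5 in lung, against 37.5% and 49.8% of all tested genes. Their median of 0.86 turned to -0.78 under housekeeping scaling. Myc had 460.3, 482 and 625 in Th2 cells and 16.3, 10.7 and 13.4 in lung, and Egr1 had 441, 458 and 283 and 11.9, 21.8 and 9.09. In the other direction, Dusp1, a phosphatase that ends MAP kinase signals, had 13.3, 18.7 and 10.1 in Th2 cells and 230.0, 262 and 232 in lung. Klf4, a transcription factor, had 1.55, 2.24 and 1.57 and 120.1, 124 and 119. These 4 genes did not overlap between groups, as was so for 88.9% of all tested genes.

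**Figure D4:**
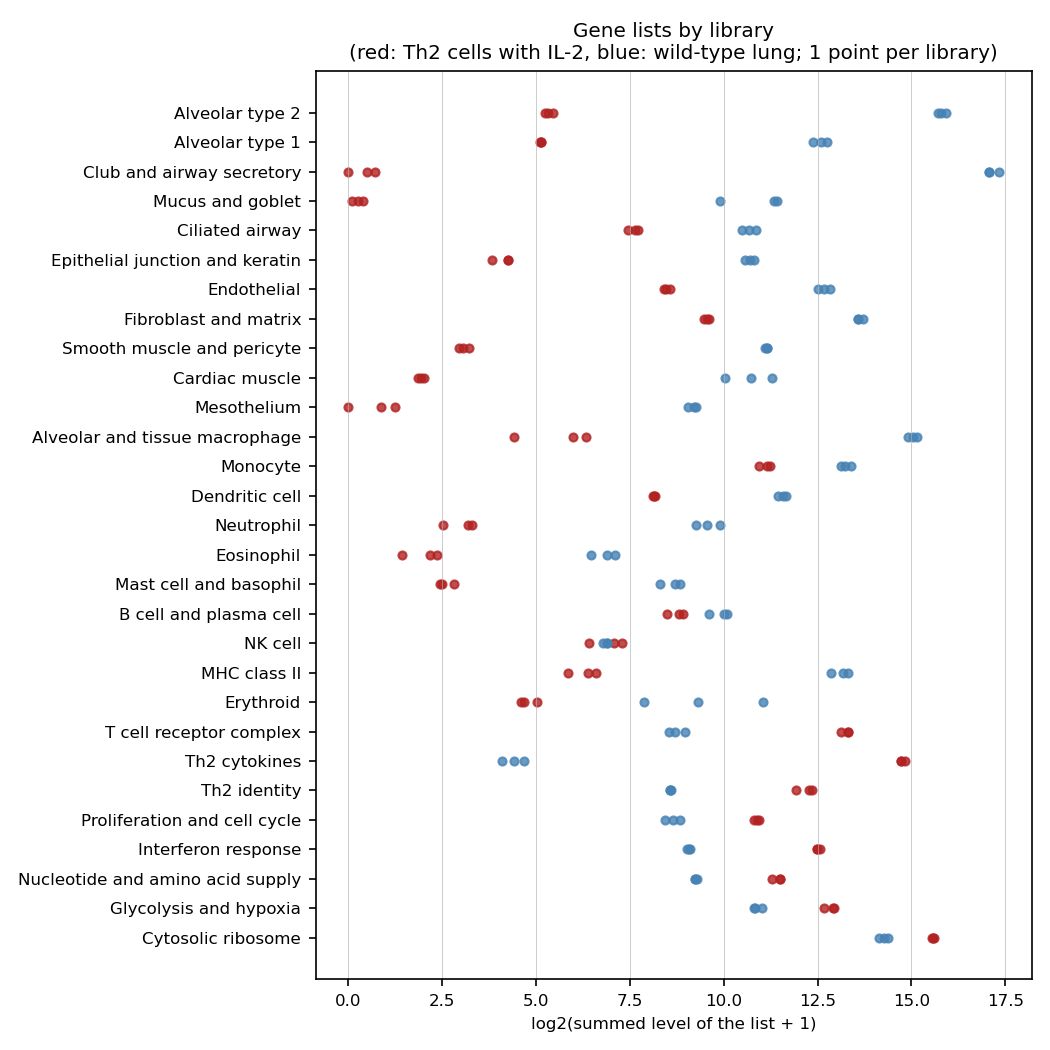
Summed level of 29 gene lists in each library, as log2(sum + 1), with Th2 cells cultured with IL-2 in red and wild-type lung in blue. Sums of the alveolar, airway, endothelial and macrophage lists lie to the right in lung (53872 to 62460 for alveolar type 2 against 36.9 to 42.8 in Th2 cells), and those of the Th2 cytokine list in Th2 cells (26786 to 28841 against 16.0 to 24.8 in lung).

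Epithelial genes were abundant in lung and mostly near 0 in the culture. Of 62 tested genes in the lists of alveolar type 2, alveolar type 1, airway secretory, mucus and ciliated cells, 49 were below a level of 1 in every Th2 library, which fixed their direction. The other 13 were 5 alveolar type 2, 4 alveolar type 1 and 4 ciliated cell genes, and all 13 were called higher in lung. Surfactant genes Sftpa1, Sftpb and Sftpd had lung means of 3585 ± 222, 3201 ± 272 and 1739 ± 86.1, and with Sftpc they made up 4.64 to 5.35% of the lung total. Sftpa1 and Sftpd were listed at 0 in every Th2 library, and Sftpb reached 0.110, 0 and 0. Ager, a receptor abundant on alveolar type 1 cells, had 2140.4, 2499.8 and 2763 in lung and 1.73, 2.22 and 3.61 in Th2 cells. Cyp2f2, a cytochrome of club cells, had 1548, 2008 and 1591 in lung and 0, 0.107 and 0 in Th2 cells.

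Mucus genes varied among the lungs. Clca3, a marker of goblet cell metaplasia, had 1819.8, 1849 and 519.7 in lung libraries 1 to 3 and was listed at 0 in the culture. Muc5b, a gel-forming mucin, had 59.2, 76.0 and 19.9, and Agr2, a chaperone of mucin folding, had 91.9, 117 and 25.3. Lung library 3 was the lowest for all 3 genes, so the size of the mucus signal depended on the lung. The groups did not overlap, as in 88.9% of all tested genes. Scgb3a1, a secretoglobin, was also lowest in lung library 3, with 2124, 2480.0 and 519.9.

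Some markers of lung epithelium were not near absent from the culture. Hopx, used as an alveolar type 1 marker, had 22.6, 24.1 and 26.3 in Th2 cells and 713, 792 and 893 in lung. Epcam, an epithelial adhesion molecule, had 11.9, 15.8 and 16.4 in Th2 cells and 53.3, 57.3 and 54.5 in lung, chosen after its values were seen. Lpcat1, an enzyme of surfactant lipid synthesis, had 20.1, 19.4 and 22.9 and 165, 197 and 181, again chosen after its values were seen. In Th2 cells these genes reached levels above 10 while Sftpc, Scgb1a1 and Nkx2-1 were listed at 0.

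Endothelial, stromal and muscle lists were also lung-high. Of 21 tested endothelial genes, 16 were below 1 in every Th2 library, and 4 of the other 5 were called higher in lung. Cldn5, a tight junction protein of endothelium, had 484, 612 and 623 in lung and 0.303, 0 and 0 in Th2 cells. Pecam1, also found on leukocytes, had 503, 536 and 587 in lung and 57.8, 63.2 and 97.9 in Th2 cells. Calcrl, the receptor partner of Ramp2, was not called, with 257, 209.5 and 168 in Th2 cells and 208, 256 and 266 in lung. It was called higher in lung under 4 other scalings, with log2 differences of -0.42 with FPKM as deposited to -1.96 under housekeeping scaling. Ramp2 itself had 982, 952 and 1220.2 in lung and 0.275, 0 and 0 in Th2 cells, so the culture held the receptor's transcript almost without that of this partner.

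Of 24 fibroblast and matrix genes, 22 were below 1 in every Th2 library. Mgp, matrix Gla protein, had 1969.6, 1998 and 2119.7 in lung and was listed at 0 in Th2 cells. Col3a1, a fibrillar collagen, had 456, 494 and 380.2 in lung and 0.171, 0.321 and 0 in Th2 cells. Thy1, which both fibroblasts and mouse T cells carry, was the exception, with 746, 774 and 706 in Th2 cells and 47.2, 34.5 and 39.7 in lung. Of 15 smooth muscle and pericyte genes 12, and of 10 cardiac muscle genes 9, were below 1 in every Th2 library, and the remaining 3 and 1 were called higher in lung. Myl7, an atrial myosin light chain, had 389.9, 659.8 and 256 in lung libraries 1 to 3, and its spread followed that of the cardiac list, which summed to 1698, 2478 and 1040.5.

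Transcription factors of lung cells were lung-high. Of 17 tested factors, 15 were below 1 in every Th2 library, and the other two were called higher in lung. Nkx2-1, the regulator of lung epithelial identity, had 115, 110.3 and 125 in lung and was listed at 0 in Th2 cells. Tcf21, a factor of lung fibroblasts, had 168, 172 and 205 and was also listed at 0 in Th2 cells.

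Myeloid lists had higher summed levels in lung, with a few members in the culture. Of 22 tested macrophage genes, 17 were below 1 in every Th2 library, and 4 of the other 5 were called higher in lung. Lyz2, lysozyme, had 7602, 8238 and 9279 in lung and 0.215, 0.202 and 0 in Th2 cells. C1qa, a complement component of tissue macrophages, had 493, 423 and 494 in lung and was listed at 0 in the culture. The macrophage list summed to 79.4, 62.7 and 20.1 in Th2 libraries 1, 3 and 5. Fabp4, the fatty acid binding protein, made up much of the sums of libraries 1 and 3, with 46.3, 31.6 and 0 in Th2 libraries 1, 3 and 5. It was not called against 183, 227 and 49.1 in lung (adjusted p 0.0556, limma). It was called higher in lung when any 1 of the 3 Th2 libraries was left out, at adjusted p values of 0.0268 to 0.0465. Apoe, apolipoprotein E, had 7.37, 9.21 and 7.54 in Th2 cells and 1682, 1494 and 1602 in lung.

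Of 13 monocyte genes, 10 were below 1 in every Th2 library, which fixed their direction. The other 3 were all called higher in Th2 cells, so no monocyte gene with a free direction was higher in lung. Ly6c2, which memory T cells also carry, had 1604, 1799 and 1643 in Th2 cells and 272, 239 and 295 in lung. It has the near-identical copy Ly6c1, so its value is uncertain. Ccr2, the receptor of monocyte chemoattractant proteins, had 616, 556 and 260.0 and 32.0, 42.1 and 36.5. Nr4a1, an orphan nuclear receptor induced by antigen receptor signals, had 38.1, 42.6 and 47.0 and 15.1, 19.2 and 15.2. Its log2 difference of 1.32 ± 0.12 turned to -0.37 under housekeeping scaling, where it was not called. Of 14 dendritic cell genes, 6 were below 1 in every Th2 library and 4 others were called higher in lung. The 2 genes Xcr1 and Ccr7 were called higher in Th2 cells, with means of 11.0 ± 0.564 and 52.6 ± 2.60 against 4.29 ± 0.809 and 20.9 ± 2.51. Their differences turned to -0.31 and -0.41 on the log2 scale under housekeeping scaling, where Xcr1 was not called.

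Of 10 MHC class II genes, 3 were below 1 in every Th2 library, and the other 7 were called higher in lung. Cd74, the invariant chain, had 4990.1, 3695 and 4719 in lung and 39.5, 46.4 and 13.8 in Th2 cells. H2-Aa, an MHC class II alpha chain, had 2290.1, 1705 and 2118 and 4.46, 7.57 and 2.74. The class II list summed to 83.3, 95.5 and 56.3 in the Th2 libraries, so these transcripts were low there but not at 0.

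Granulocyte, mast cell and B cell lists were lung-high as well, with 7 of 9 tested neutrophil, 5 of 6 eosinophil, 9 of 10 mast cell and 9 of 14 B and plasma cell genes below 1 in every Th2 library. Prg2, major basic protein of eosinophils, had 24.9, 22.6 and 12.5 in lung and was listed at 0 in Th2 cells. Ccr3, the eotaxin receptor, had 11.6, 12.2 and 9.44 in lung and 2.99, 4.04 and 1.46 in Th2 cells, and so was detected in both, with the call lost under quantile normalization (adjusted p 0.370). Mcpt1, a mucosal mast cell protease, had 64.9, 85.4 and 20.4 and was listed at 0 in Th2 cells. Igj, the joining chain of secreted antibodies, had 235, 309 and 197 in lung and 0.677, 0.453 and 0 in Th2 cells. Xbp1, a factor of secretory cells, was the B cell list's exception, with 459, 431 and 348 in Th2 cells and 277, 314 and 288 in lung, a log2 difference of 0.48 ± 0.11 that turned to -1.27 under housekeeping scaling. Globin sums, a sign of blood in the sample, differed among the lungs at 2121, 636 and 235 for the erythroid list, against 23.2 to 31.7 in Th2 cells.

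Ligands and receptors were then paired across the groups. Of 20 ligand genes taken as products of Th2 cells, 19 were higher in the culture, 6 of which passed the filter through the Th2 libraries alone, and Xcl1 was not called, with 1.86, 5.80 and 24.8 in Th2 cells and 7.79, 5.37 and 8.99 in lung. Library 5 set much of the Th2 mean of Xcl1, which fell from 10.8 to 3.83 without it. Xcl1 was called higher in lung under housekeeping scaling, at -1.30 (adjusted p 0.0472), and higher in Th2 cells under quantile normalization, at 1.48 (adjusted p 0.0439). Spp1, osteopontin, a matrix protein and cytokine of the study's title, had 2009.6, 1748 and 1725 in Th2 cells and 139, 118 and 106 in lung. In the contrast of IL-33 Th2 cells and dGATA lung Spp1 was not called, with a log2 difference of 0.76 (adjusted p 0.386). Of 29 tested receptor genes for these ligands, 17 were higher in lung and 10 in Th2 cells, near the 49.8% and 37.5% of all tested genes, and 6 of the 17 passed the filter through the lung alone. Their median of -1.01 turned to 0.22 under quantile normalization.

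Receptors for the most abundant cytokines were unequal. Il4ra, shared by IL-4 and IL-13, had 164, 177 and 100.2 in Th2 cells and 75.9, 79.7 and 79.3 in lung, a log2 difference of 0.86 ± 0.20 that turned to -0.88 under housekeeping scaling. Il13ra1, its partner for IL-13, had 10.3, 7.81 and 4.68 in Th2 cells and 21.1, 27.5 and 22.8 in lung. Csf2rb, the common beta chain for IL-3, IL-5 and GM-CSF, had 46.5, 43.6 and 41.3 in lung and 0.181, 0.0943 and 0.0577 in Th2 cells. Il5ra had 2.82, 2.75 and 1.63 in lung and 0.110, 0.0514 and 0 in Th2 cells. Its difference turned to 0.22 under quantile normalization, where it was not called. Il13ra1, Csf2rb and Il5ra were thus higher in lung and Il4ra in the culture, while the ligands were higher in the culture.

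For amphiregulin, Egfr had 13.8, 14.8 and 13.9 in lung and 0.579, 0.581 and 0.106 in Th2 cells. It did not overlap between groups, as was so for 88.9% of all tested genes. For osteopontin, the receptors Cd44 and Itgav were higher in Th2 cells, with means of 470.4 ± 83.3 and 84.0 ± 5.77 against 91.5 ± 5.12 and 16.8 ± 1.37. For IL-24, the receptor chain Il22ra1 had 2.34, 2.50 and 1.53 in lung and was listed at 0 in Th2 cells, although the call was lost under quantile normalization (adjusted p 0.917). For Ccl1, Ccr8 had 58.3, 50.3 and 51.7 in Th2 cells and 2.79, 2.84 and 2.82 in lung, so ligand and receptor transcripts were both higher in the culture. Il9r was low in both groups, with 1.91, 2.33 and 2.92 and 3.32, 2.12 and 1.94, and its 95% interval of the log2 difference was -0.45 to 0.41, although it was called higher in Th2 cells under quantile normalization, at 1.70, and higher in lung under housekeeping scaling, at -0.98.

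Of 29 tested ligand genes taken as products of lung cells, 20 were higher in lung and 5 in Th2 cells. Over all tested genes the shares were 49.8% and 37.5%. Among the 13 ligand genes that did not pass the filter through 1 group alone, 5 were higher in lung and 4 in Th2 cells. Il33, the ligand of ST2, had 101, 128 and 126 in lung and 0.473, 0.591 and 0.113 in Th2 cells, a log2 difference of -6.43 ± 0.16. Tslp, another epithelial alarmin, had 9.97, 10.2 and 13.2 in lung and 0.198, 0 and 0 in Th2 cells. Il25, the third alarmin, did not exceed a level of 0.0773 in any library of either group. Ccl8, a chemokine for Th2 cells and monocytes, had 1713, 1347 and 1378 in lung, and Ccl11, eotaxin, had 156, 150.1 and 119, and both were listed at 0 in Th2 cells. Cxcl16 had 103, 94.5 and 115 in lung and 0.969, 1.22 and 2.69 in Th2 cells.

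Against the list, Tnfsf4, Cd274, Pdcd1lg2, Csf1 and Cd86 were higher in Th2 cells. Tnfsf4, the ligand of OX40, had 65.9, 65.3 and 255 in Th2 cells and 0.803, 0.214 and 0.611 in lung, a ratio of 237 that was 121 without library 5. It passed the filter through the Th2 cells alone, which fixed its direction. Cd274, PD-L1, had 285, 289 and 359.8 in Th2 cells and 21.7, 23.1 and 25.0 in lung. Csf1 and Cd86 had means of 80.9 ± 21.6 and 19.5 ± 3.77 in Th2 cells and 34.3 ± 0.726 and 9.41 ± 2.39 in lung, and both were higher in lung under housekeeping scaling, at -0.54 and -0.61 on the log2 scale. Ligand and receptor of the OX40 and PD-1 pairs were thus higher in the culture together, since Tnfrsf4 and Pdcd1 had Th2 means of 1437 ± 135 and 176 ± 22.3 against 5.58 ± 1.25 and 7.12 ± 2.54.

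Of the 29 receptor genes for lung ligands, 17 were higher in Th2 cells and 11 in lung, against 37.5% and 49.8% of all tested genes. Of these 11, 7 passed the filter through the lung alone, which fixed their direction, and 4 did not. The median of the list, 1.29, turned to -0.41 under housekeeping scaling. Cxcr6, the receptor of CXCL16, had 1360.2, 1325 and 1181 in Th2 cells and 11.2, 14.2 and 15.4 in lung, a log2 difference of 6.47 ± 0.12 (adjusted p 1.04e-08, limma). Crlf2, the TSLP receptor chain, had 117, 114 and 127 and 34.1, 32.5 and 35.0, with the call lost under housekeeping scaling (adjusted p 0.693). Cxcr4, the receptor of CXCL12, was higher in lung, with 119, 93.2 and 105 against 19.8, 21.2 and 18.1 in Th2 cells. Il7r, the IL-7 receptor chain, was not called, with 55.8, 58.6 and 13.7 in Th2 cells and 24.2, 16.3 and 18.2 in lung, where library 5 alone lay below the lung libraries. Without library 5 it was called higher in Th2 cells, with a log2 difference of 1.52 (adjusted p 6.51e-05, limma). Receptors of growth factors for other lineages, Csf1r, Kit, Met, Tek and Kdr, were higher in lung and had Th2 means of at most 0.213.

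**Figure D5:**
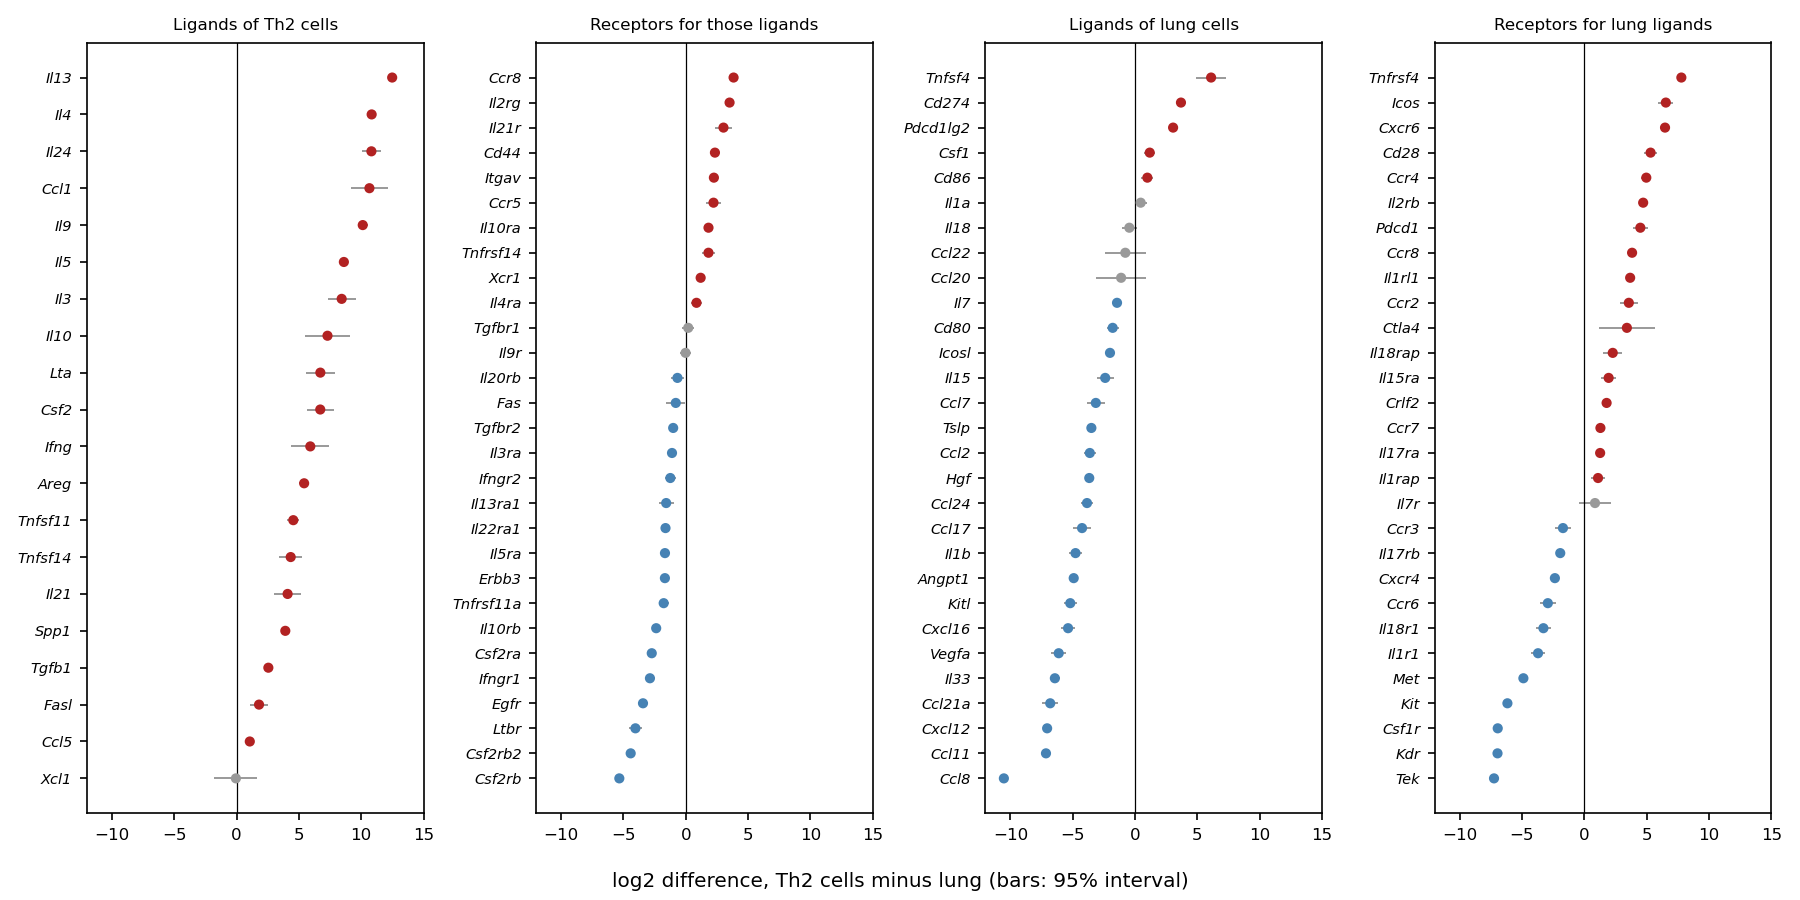
Log2 difference, Th2 cells minus lung, with its 95% interval for each tested gene of 4 lists: ligands of Th2 cells, their receptors, ligands of lung cells and their receptors. Red genes were called higher in Th2 cells, blue genes higher in lung and grey genes were not called. Of the Th2 ligands 19 of 20 lie to the right of 0, and of the lung ligands 20 of 29 lie to the left as called genes. Where a gene is at 0 in 1 group, its place depends on the pseudocount.

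Some genes were shown to lie close in both sample kinds. For 4563 tested genes (31.4%) the 95% interval of the log2 difference lay within -1 and 1. Of 12 housekeeping genes, 10 were higher in Th2 cells and Sdha was higher in lung, with a median of 1.41. The shares over all tested genes were 37.5% and 49.8%. Housekeeping scaling sets the sum of these same 12 genes equal, so their median of -0.34 under it is no separate result. Gapdh and Pgk1 are also in the glycolysis list, Rplp0 in the ribosome list and Sdha in the respiratory chain list. Polr2a, the largest subunit of RNA polymerase II, was close, with 93.2, 85.0 and 82.1 in Th2 cells, 87.6, 96.3 and 82.7 in lung and a 95% interval of -0.22 to 0.16. Under housekeeping scaling it was called higher in lung, at -1.76. Tmsb4x, which binds actin monomers, was among the most abundant genes of both groups, with 9387, 8907 and 8446 in Th2 cells and 6413, 6075 and 6869 in lung. Its log2 difference of 0.47 ± 0.096 turned to -1.30 under housekeeping scaling.

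The same contrast between the other mouse libraries, Th2 cells with IL-2 and IL-33 against dGATA lung, gave largely the same split. Of 12330 called genes that could also be tested there, 10347 (83.9%) were called in the same direction and 194 in the opposite one. In it 5018 genes were higher in Th2 cells and 6302 in lung. Among the genes named above and called in the first contrast, Ccr3, Cxcr4, Cd86 and Tmtc2 were called in the opposite direction there. Spp1, Irf7, Mmp3, Ifi27l2a and Hist2h2aa2 lost the call. So did Foxp3, Oas1a, Oas1g and Fam115c, whose differences also changed sign. Ccr3 had 17.1, 13.8 and 18.7 in Th2 cells with IL-33 and at most 0.460 in dGATA lung, a log2 difference of 3.83 against -1.71 in the first contrast. Cxcr4 had 110.3, 114 and 93.2 and 58.3, 91.1 and 70.8, a difference of 0.54 against -2.36. Cd86, a costimulatory ligand, had 0.567, 0.505 and 0.510 and 5.04, 9.77 and 9.08, a difference of -2.51 against 0.99. These libraries are separate samples, but they share sample kind and any batch with the first comparison, so their difference from it bears on IL-33 and genotype as well.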

How the data were processed

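RNA was measured by sequencing of libraries made with a stranded mRNA kit, per the labels' protocols. The authors deposited FPKM per gene (fragments scaled to transcript length and library size), with TopHat 1.3.2, Bowtie 0.12.8, Cufflinks 2.0.2 and the mm10 build named in the submitters' processing notes; no source used here states strand use in counting. Read counts were not used here, so read totals are unknown and no counting interval is given.

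The deposited FPKM of 23746 entries were summed to 23284 symbols, of which 240 had several entries. After 773 small RNA symbols were left out, 22511 were rescaled to a sum of 1000000 per library, and 25 symbols that had turned into dates could not be named. Genes at a level of 1 or more in at least 3 of 6 libraries were tested with limma 3.58.1 (R 4.3.3, trend, no covariate) on log2(level + 1), two-sided, with Benjamini-Hochberg adjustment over all tested genes and calls at an adjusted p below 0.05. With 3 libraries against 3, an exact permutation test of 1 gene cannot go below 0.1, so none is given. The script was tested on simulated data.

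The 45 gene lists, the members of the comparison and the bounds of one-sided genes were chosen with earlier results of these data known. Named genes were the 12 most abundant of each group, the 15 largest differences each way, up to 6 abundant members of each list and members that went against it, all listed ligands and receptors, and close housekeeping genes; clone and predicted names were left out, and some genes are not reported here. Cd3e, Cd4, Cd8a, Il6, Epcam, Lpcat1, the one-sided genes near the bounds and genes noted as such were named after their values were seen. Promoter sequences are from RefSeq (mm10). Alternatives covered pseudocount, filter, scaling, weights, the libraries in the fit, a replicate block and each library left out. Title numbers 1 and 3 occur in both groups, and the labels tie no shared source to a number.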

Additional observations from a re-analysis of the deposited data

How the results depend on the processing

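Leaving out each library in turn gave 5278 to 5553 genes higher in Th2 cells, 7007 to 7367 higher in lung, 4242 to 4696 close in both, 23 to 31 near absent from lung and 1799 to 1859 near absent from Th2 cells. Housekeeping scaling gave 971 higher in Th2 cells, 12291 higher in lung and 2490 close genes. Close genes numbered 6865 with a pseudocount of 5 and 8279 with no filter. Genes near absent from lung numbered 8 with bounds of 5 and 0.1, 50 with 5 and 1, 11 with 20 and 0.5, and 41 for Th2 cells with IL-33 against dGATA lung. Genes near absent from Th2 cells numbered 1068 with bounds of 5 and 0.1 and 766 with 20 and 0.5. Of 168 named genes, 128 kept direction and call in every alternative run.

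Log2 differences that changed sign under housekeeping scaling were Ccr7 -0.41, Cd86 -0.61, Csf1 -0.54, Eef1a1 -0.39, Hspa8 -0.28, Il4ra -0.88, Il7r -0.80, Nr4a1 -0.37, Pcna -0.018, Rpl41 -0.47, Rplp1 -0.87, Stat6 -1.67, Tmsb4x -1.30, Tpt1 -0.92, Xbp1 -1.27 and Xcr1 -0.31. Under quantile normalization Foxp3 turned to 0.85, Il17rb to 0.20, Il5ra to 0.22, Il9r to 1.70, Stat6 to -0.21 and Xcl1 to 1.48. In the contrast of Th2 cells with IL-33 and dGATA lung, Ccr3 turned to 3.83, Cd86 to -2.51, Cxcr4 to 0.54, Fam115c to 0.59, Foxp3 to 0.39, Il9r to 1.21, Oas1a to -0.72, Oas1g to -1.29 and Tmtc2 to 0.85. Stat6, which was not called, turned to -0.15 with FPKM as deposited, -0.21 with small RNAs kept, -0.049 with median-of-ratios scaling and -0.063 with array weights, and Xcl1, not called either, to 0.084 with a pseudocount of 5. Without 1 library, values ran from -0.13 to 0.15 for Il9r, -0.087 to 0.025 for Polr2a, -0.099 to 0.14 for Stat6 and -0.90 to 0.69 for Xcl1. Calls were lost with small RNAs kept for Tmsb4x and Xbp1. Under quantile normalization they were lost for Ccr3, Gzmk, Il22ra1, Prf1 and Xbp1 and, with a changed sign, for Il17rb and Il5ra. Under housekeeping scaling they were lost for Crlf2 and Ctla4 and, with a changed sign, for Pcna, Nr4a1 and Xcr1. Between IL-33 Th2 cells and dGATA lung they were lost for Spp1, Irf7, Mmp3, Ifi27l2a and Hist2h2aa2. There Foxp3, Oas1a, Oas1g and Fam115c also lost the call, with a changed sign. Housekeeping scaling newly called Il9r and Xcl1 higher in lung, and quantile normalization called both higher in Th2 cells. The cause of these changes was not tested.

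With a replicate block on the title numbers, 5399 genes were higher in Th2 cells and 7226 in lung, with Polr2a at 0.063, Stat6 at -0.072, and Il7r, Fabp4 and Xcl1 newly called. Deviations of libraries with the same number correlated at -0.04 (number 1) and -0.06 (number 3), so the numbers were not taken to pair the samples. Read totals were unknown, which limits genes listed at or near 0: absence of a value there does not show absence of the transcript. Sample kind, culture and any batch fall together, so they cannot be told apart.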
